A study of Mus musculus with 21 samples.

Results

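RPA ChIP-seq peaks were examined at 5 loci, those near the genes Gdf3, Gata4, Klf15, Gp9 and Rnf145. The genes were selected on measured values, since the sites beside them were strong by fold enrichment and broad in the lists of cells given an ATR inhibitor. A peak was counted as a member when its summit lay inside a gene body or within 50 kb of it. This gave 43 of the 683 peaks of 6 lists, and joined over lists at gaps of up to 1 kb they formed 5 of 304 sites. By gene, 8 peaks lay near Gdf3, 8 near Gata4, 8 near or in Gp9, 15 near Klf15 and 4 near Rnf145. Fold, width and rank therefore describe how the loci look and were not tested.

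The cells were passage-immortalized mouse embryonic fibroblasts (MEFs), labelled ATR+/- in all groups, the untreated one included. RPA-bound chromatin and input were sequenced in 21 libraries, 13 of ChIP and 8 of input, and the authors deposited 1 peak list per treatment. The groups were DMSO for 18 h, aphidicolin (APH, 0.2 µM) for 18 h, the ATR inhibitor (ATRi, ATR-45 in the labels, 1 µM) for 18 h, ATRi with APH at the same doses for 9 h and for 18 h, and ATRi (1 µM) for 18 h in MEFs with knockdown of TIM (ATRi+shTIM). Each list pools the ChIP libraries of its treatment, 3 for ATRi+APH 18 h and 2 for each other list, so no list holds values per replicate and no spread between replicates can be given. No group had the TIM knockdown without the inhibitor.

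RPA is the protein complex that coats single-stranded DNA, which is exposed when the replicative helicase runs ahead of the polymerases or when a broken end is resected. The kinase ATR is recruited to RPA-coated DNA, restrains origin firing and keeps stalled forks from collapsing. Aphidicolin slows the replicative polymerases, and Timeless (TIM) belongs to the fork protection complex that keeps helicase and polymerase together.

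The promoter of Gp9 was the only promoter with a RefSeq entry, out of the 3 found for the 5 genes, that a member peak overlapped. Gp9 encodes platelet glycoprotein IX, a subunit of the von Willebrand factor receptor of megakaryocytes and platelets. Its sequence is shown because the outer edge of a peak passed over it in a single list. It spans chr6:87777820-87778119 on the + strand (RefSeq, GRCm38.p6, the coordinates of mm10), from 250 bases before to 50 bases after the start, with the start site at 87778070. Capitals mark GATAAG and CACACACA, which were chosen after the sequence had been seen, were searched on both strands and do not overlap.
Gp9 promoter: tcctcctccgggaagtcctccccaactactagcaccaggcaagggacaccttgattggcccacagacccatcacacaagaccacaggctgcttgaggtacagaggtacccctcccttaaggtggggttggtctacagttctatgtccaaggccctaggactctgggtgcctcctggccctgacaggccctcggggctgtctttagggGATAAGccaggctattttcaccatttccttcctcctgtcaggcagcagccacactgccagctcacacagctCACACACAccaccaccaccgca
GATAAG began 43 bases before the start site and was present in 7.44% of 32851 RefSeq promoters of this length. CACACACA began 28 bases after the start site and was present in 4.09% of them. The window had a GC content of 58.3%. A match is only a description of the letters.

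Neither of the lists made without the inhibitor held a member peak. The DMSO list had 0 of 46 peaks at these loci and the APH list 0 of 1. With the inhibitor, the counts were 10 of 56 peaks with ATRi alone, 9 of 65 for ATRi+APH 9 h, 12 of 327 for ATRi+APH 18 h and 12 of 188 for ATRi+shTIM. All 5 loci had a peak in each of the 4 lists made with the inhibitor. They were 5 of 29 sites present in all 4. Most of the other sites among these also lacked a DMSO peak, and none had an APH peak. The lowest listed −log10 p differed between lists. It was 39.5 for the single peak of the APH list, 33.97 for ATRi+APH 9 h and 29.9 with ATRi alone. The lowest value was 21.7 in the ATRi+APH 18 h list, 10.7 in the ATRi+shTIM list and 10.0 in that of DMSO. The calling limits are not given, and a site missing from a list may lie under its limit. The nearest summit of any list outside the 50 kb window was 0.319 Mb from the gene body of Gp9, 1.11 Mb from that of Gata4, 2.81 Mb from that of Gdf3 and 8.79 Mb from that of Rnf145. For Klf15 it belonged to the Gp9 locus, 2.69 Mb from the gene body.

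Every locus had a peak wider than 1 kb in the ATRi, ATRi+APH 9 h and ATRi+APH 18 h lists, and near Gata4 both ATRi+shTIM peaks were narrower, at 847 and 970 bp. Peaks wider than 1 kb near the 5 genes numbered 8 of 18 such peaks in the ATRi list (44.4%), 7 of 17 for ATRi+APH 9 h (41.2%), 9 of 66 for ATRi+APH 18 h (13.6%) and 4 of 22 for ATRi+shTIM (18.2%). The median fold of member peaks was 11.4 beside 8.90 for all peaks of the ATRi list, 24.8 beside 17.8 for ATRi+APH 9 h, 32.1 beside 9.89 for ATRi+APH 18 h and 23.4 beside 10.1 for ATRi+shTIM. These medians reflect how the loci were selected. Fold is the authors' enrichment over input at the summit, and values are set beside each other only within a list. Of the 25 highest folds of a list, member peaks held 10 places with ATRi alone, 6 for ATRi+APH 9 h, 11 for ATRi+APH 18 h and 6 for ATRi+shTIM. Of all peaks of these lists, in the same order, member peaks made up 17.9%, 13.8%, 3.67% and 6.38%. The places also reflect the selection, and 25 places are a larger part of a short list than of a long one.

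**Figure D1:**
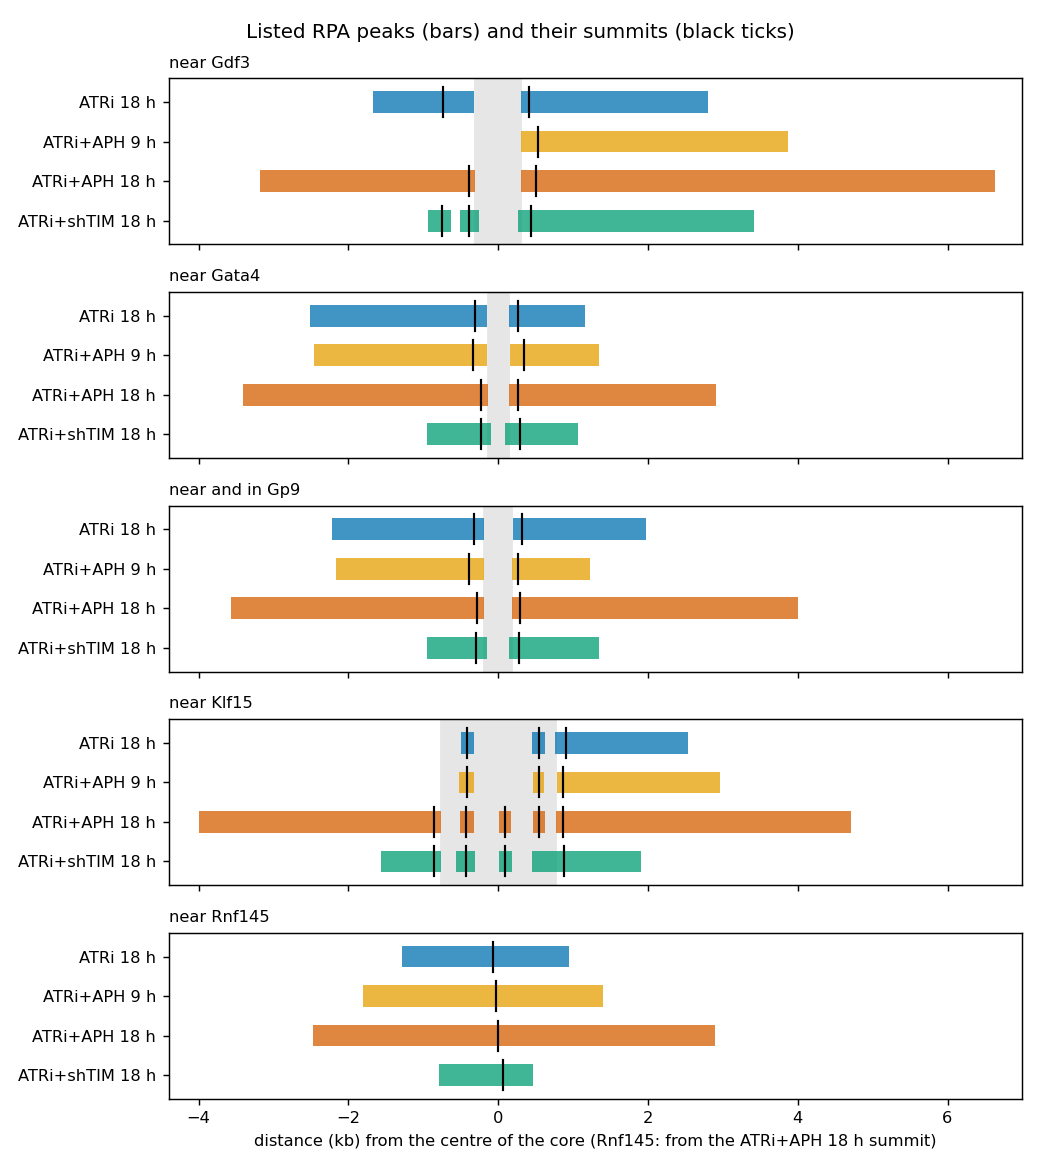
Listed peaks at the 5 loci in the 4 lists made with the ATR inhibitor. Each bar runs from the start to the end of a peak, and the black tick is its summit. The horizontal axis is the distance in kb from the centre of the core (for Rnf145 from the ATRi+APH 18 h summit). The grey band is the core of the ATRi+APH 18 h list. Inner edges line up between the lists that hold them, except on the high side near Klf15 for ATRi+shTIM, while outer edges do not.

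Near Gdf3, the site lay at higher coordinates than the gene (chromosome 6, gene body 122605403 to 122610087), with summits 4.85 to 6.14 kb from it. Gdf3 encodes a ligand of the TGF-beta family that signals through NODAL receptors and is known from pluripotent cells. The site had peaks on the low-coordinate side and on the high-coordinate side of an interval called the core here. The core of a locus was placed between its 2 peaks over 1 kb of the ATRi+APH 18 h list. Its length in a list was measured between the nearest edges of the peaks on either side. Near Gdf3 it held no listed peak. The core was 622 bp with ATRi alone, 621 bp for ATRi+APH 18 h and 528 bp for ATRi+shTIM. For ATRi+APH 9 h the list held the high-side peak alone, so no core could be measured. The high-side peak had the higher fold in the 3 lists with both sides, 14.7 against 11.2 with ATRi alone, 51.6 against 32.7 for ATRi+APH 18 h and 35.6 against 27.0 for ATRi+shTIM, and stood at 34.4 for ATRi+APH 9 h. It ranked 3 of 56, 6 of 65, 1 of 327 and 7 of 188 in the lists of ATRi, ATRi+APH 9 h, ATRi+APH 18 h and ATRi+shTIM. Thus the strongest peak of the ATRi+APH 18 h list, by fold and by −log10 p, was the high-side peak near Gdf3. Its rank in the ATRi+APH 9 h list was 11 by −log10 p. On the low side, the ATRi+shTIM list held 2 narrow peaks of 306 and 254 bp in place of 1 broad peak, with summits at 122614938 and 122615301. The broad low-side peak had its summit at 122614956 for ATRi and at 122615297 for ATRi+APH 18 h, so each lay close to a different one of the narrow summits.

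Near Gata4, summits lay 8.47 to 9.14 kb from the gene at higher coordinates (chromosome 14, gene body 63198914 to 63271712). Gata4 encodes a zinc finger transcription factor of heart and endoderm development. All 4 lists held exactly 2 peaks here, with cores of 293 bp with ATRi alone, 300 bp for ATRi+APH 9 h, 280 bp for ATRi+APH 18 h and 196 bp for ATRi+shTIM. The low-side peak was the stronger in all 4, at 15.9 against 11.7 with ATRi alone, 36.6 against 13.9 for ATRi+APH 9 h, 49.97 against 29.99 for ATRi+APH 18 h and 27.9 against 20.4 for ATRi+shTIM. This side was opposite to that near Gdf3. The low-side peak ranked 1 of 56 with ATRi alone, 5 of 65 for ATRi+APH 9 h, 2 of 327 for ATRi+APH 18 h and 15 of 188 for ATRi+shTIM. By −log10 p in place of fold, the rank in the ATRi list was 4.

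At Gp9, the core lay just before the low-coordinate end of the gene body (chromosome 6, 87776131 to 87779786), and summits were 0.316 to 1.02 kb from it. Cores measured 392 bp with ATRi alone, 381 bp for ATRi+APH 9 h, 370 bp for ATRi+APH 18 h and 298 bp for ATRi+shTIM. The low-side peak was the stronger in 3 lists, at 11.7 against 9.79 with ATRi alone, 29.0 against 12.4 for ATRi+APH 9 h and 43.9 against 15.0 for ATRi+shTIM. In the ATRi+APH 18 h list the order was the other way, with 23.3 on the low side and 31.5 on the high side. It was the only one of the 4 loci with a core whose stronger side changed between the lists that hold both sides. The high-side peak of the ATRi+APH 18 h list overlapped 3361 bp of the 3656 bp gene body and the whole promoter window printed above, and ended 1421 bp past the start site. The high-side peaks of the other lists ended before the start site, by 603 bp with ATRi alone, 1348 bp for ATRi+APH 9 h and 1240 bp for ATRi+shTIM. The start site lies inside the gene body, and these peaks still overlapped the body. The overlap was 1337 bp with ATRi alone, 592 bp for ATRi+APH 9 h and 700 bp for ATRi+shTIM. No summit of this locus lay in the promoter window.

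Near Klf15, summits lay 25.3 to 27.1 kb from the gene at higher coordinates (chromosome 6, gene body 90461043 to 90491803). Klf15 encodes a Krüppel-like zinc finger factor of glucose and amino acid metabolism. Its core was the longest, at 1537 bp for ATRi+APH 18 h and 1212 bp for ATRi+shTIM, and unlike the other cores it held narrow peaks. For ATRi+APH 18 h there were 3, of 194, 157 and 161 bp, with folds of 33.3, 28.5 and 29.8. The ATRi list had 2, of 171 and 170 bp, the ATRi+APH 9 h list 2, of 189 and 152 bp, and the ATRi+shTIM list 2, of 244 and 177 bp. The broad high-side peak had folds of 11.1 with ATRi alone, 39.3 for ATRi+APH 9 h, 42.4 for ATRi+APH 18 h and 33.99 for ATRi+shTIM, with ranks of 15, 4, 4 and 8. By −log10 p its rank was 6 in the ATRi list and 13 in the ATRi+shTIM list. A low-side peak was listed for ATRi+APH 18 h, at a fold of 30.9, and for ATRi+shTIM, at a fold of 17.1, below the high side in both. In the ATRi+shTIM list the high-side peak began at 90518401, where the other lists have a separate narrow peak.

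Near Rnf145, each list held 1 broad peak and no core (chromosome 11, gene body 44518793 to 44565520), with summits 16.0 to 16.1 kb from the gene at lower coordinates. Rnf145 encodes a ubiquitin ligase of the endoplasmic reticulum that takes part in sterol control of HMG-CoA reductase. The peak had folds of 15.0 with ATRi alone, 20.4 for ATRi+APH 9 h, 33.7 for ATRi+APH 18 h and 26.5 for ATRi+shTIM, with ranks of 2, 22, 11 and 21. By −log10 p its rank was 5 in the ATRi list. Its summit lay near the middle, at 54.4%, 55.4%, 46.1% and 68.6% of the width from the low edge. The 4 summits fell within 138 bp, while the starts ranged over 1680 bp and the ends over 2430 bp.

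**Figure D2:**
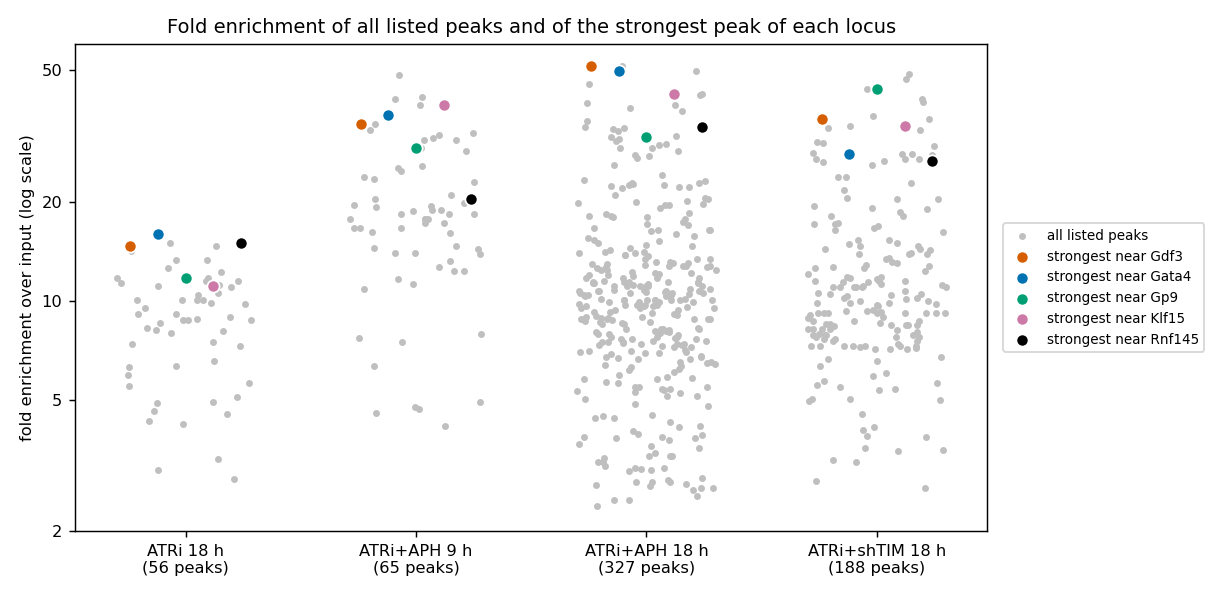
Fold enrichment over input (vertical axis, log scale) of every peak in the 4 lists made with the ATR inhibitor (grey points, spread sideways for legibility), with the strongest peak of each of the 5 loci in colour. The coloured points lie in the upper part of each list, with rank 1 by fold near Gata4 for ATRi (rank 4 by −log10 p) and near Gdf3 for ATRi+APH 18 h; the loci were selected on these values.

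Near Gdf3, Gata4 and Gp9, inner edges, those facing the core, were nearly the same in the lists that held them, and outer edges were not. Near Gdf3 the inner edge ranged over 59 bp on the low side, held by 3 lists, and 41 bp on the high side. The ranges were 49 and 55 bp near Gata4, and 44 and 54 bp at Gp9. The outer edge ranged over 2245 and 3829 bp near Gdf3, 2459 and 1835 bp near Gata4, and 2612 and 2769 bp at Gp9. Most of the inner range came from the ATRi+shTIM list: without it, the ranges near these 3 genes were 6 to 18 bp. Near Klf15 the low-side inner edge ranged over 10 bp in 2 lists, and the high-side one over 325 bp, or 14 bp without ATRi+shTIM. At other loci, narrow peaks of the ATRi+shTIM list were wider than their counterparts. Over peaks of up to 1 kb that overlapped a single peak of another list, they were wider by a median of 66.5 bp than ATRi peaks (26 pairs), 79 bp than ATRi+APH 9 h peaks (39 pairs) and 54 bp than ATRi+APH 18 h peaks (112 pairs). In these pairs both peaks had to be 1 kb or less. Broad ATRi+APH 18 h peaks elsewhere had a median width ratio of 2.27 to the ATRi+shTIM peak they overlapped (0.384 to 13.1, 24 peaks). Those were chosen by the width of the ATRi+APH 18 h peak alone, which favours a high ratio, so the 2 measures are not alike. A link between the shorter cores of the ATRi+shTIM list and its wider narrow peaks was not tested.

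The reach of each side, from inner to outer edge, was longest in the ATRi+APH 18 h list at all 4 loci with a core. There it was 2872 bp on the low and 6317 bp on the high side near Gdf3, 3265 and 2762 bp near Gata4, 3382 and 3815 bp at Gp9, and 3229 and 3936 bp near Klf15. The 9 h list had 3554 bp on the high side near Gdf3, 2311 and 1193 bp near Gata4, 1974 and 1043 bp at Gp9, and 2183 bp on the high side near Klf15. With ATRi alone the values were 1357 and 2494 bp near Gdf3, 2362 and 1011 bp near Gata4, 2024 and 1773 bp at Gp9, and 1767 bp on the high side near Klf15. ATRi+shTIM had 679 and 3140 bp near Gdf3, 847 and 970 bp near Gata4, 806 and 1190 bp at Gp9, and 805 and 1455 bp near Klf15. Of the sides listed, ATRi+shTIM had the shortest reach on every low side and on the high side near Gata4 and Klf15. On the high side ATRi+APH 9 h was shorter at Gp9 and ATRi was shorter near Gdf3. The Rnf145 peak was also widest for the ATRi+APH 18 h list, with 5368 bp, beside 3204 bp at 9 h, 2229 bp with ATRi alone and 1258 bp for ATRi+shTIM.

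Broad peaks elsewhere were measured the same way. For each peak over 1 kb in the ATRi+APH 18 h list that overlapped a single peak of another list, its width was divided by that of the other peak. The width limit applied to the ATRi+APH 18 h peak alone, which by itself favours ratios above 1. Against ATRi the median ratio was 2.19 over 8 member peaks and 2.17 over 13 others. Against ATRi+APH 9 h it was 1.78 over 7 member peaks and 1.43 over 11 others, and against ATRi+shTIM it was 3.53 over 8 member peaks and 2.27 over 24 others. The ATRi+APH 18 h list pools 3 ChIP libraries where the others pool 2, library depth is unknown, and the antibody lots differ, with 3 lots for ATRi+APH 18 h, 2 for ATRi+APH 9 h, 2 with ATRi alone and 1 for ATRi+shTIM. For the widths, treatment cannot be told apart from depth, lot or number of libraries.

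**Figure D3:**
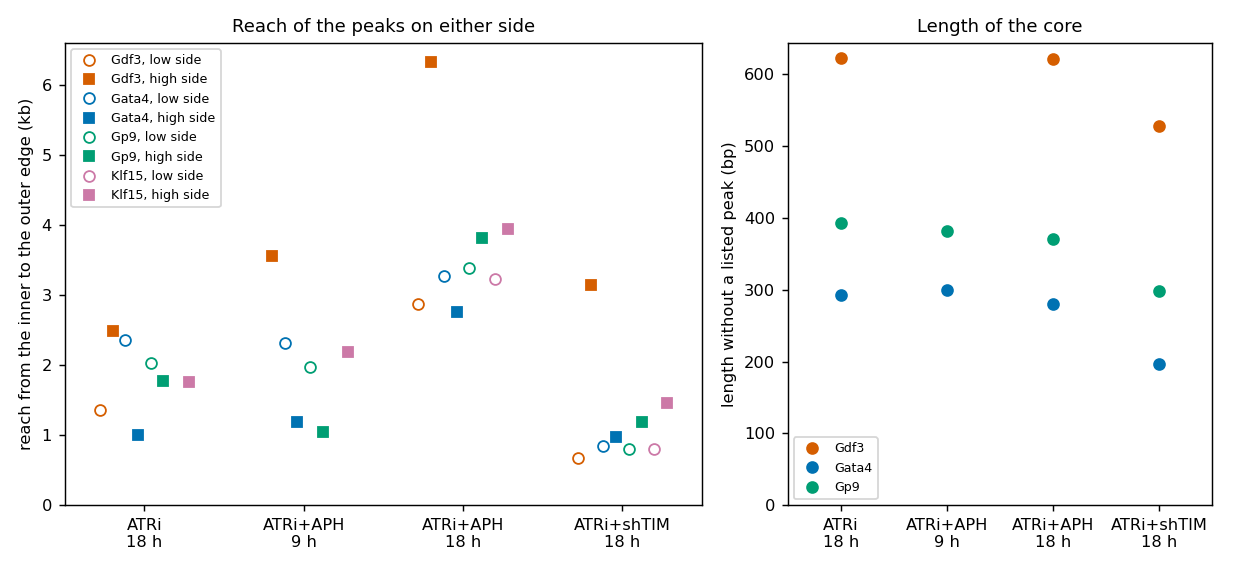
Left, distance in kb from the inner to the outer edge of the peaks on the low side (open circles) and the high side (filled squares) of the core, per list; right, length of the core in bp at the 3 loci whose core holds no peak. Reaches were longest for ATRi+APH 18 h, at 2762 to 6317 bp, and cores were shortest for ATRi+shTIM.

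Summits of broad member peaks beside a gap stood in the part nearer to it. Among member peaks there were 23 gaps of up to 2 kb between adjoining peaks of a list. Their median was 298 bp (119 to 791 bp), beside a median of 362 bp over 133 gaps elsewhere. Not all of these gaps were cores. Near Klf15 they lay beside or between the narrow peaks in the core, and the gap of 119 bp near Gdf3 lay between narrow low-side peaks. Counted by peak side, 23 of 23 broad member sides and 43 of 53 others (81.1%) had the summit in the part nearer the gap. Of the broad peaks elsewhere, 7 had a gap on both sides, so that 1 of their sides had to miss, and no broad member peak did. Without those 7 peaks, 36 of 39 sides elsewhere (92.3%) had the summit nearer the gap. The summit then lay at a median of 7.35% of the width from the gap elsewhere (2.52 to 61.1%), and 6.77% near the 5 genes (2.41 to 30.8%). Where both peaks at a gap were wider than 1 kb, both summits lay on the side of the gap in 8 of 8 gaps near the 5 genes, and in 12 of 12 elsewhere without the 7 peaks (13 of 15 with them). The pattern of a gap with summits on its flanks was thus present at other broad sites too. The same few loci recur in several lists, so these counts are not independent, and what lies in the gaps was not analysed here.

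**Figure D4:**
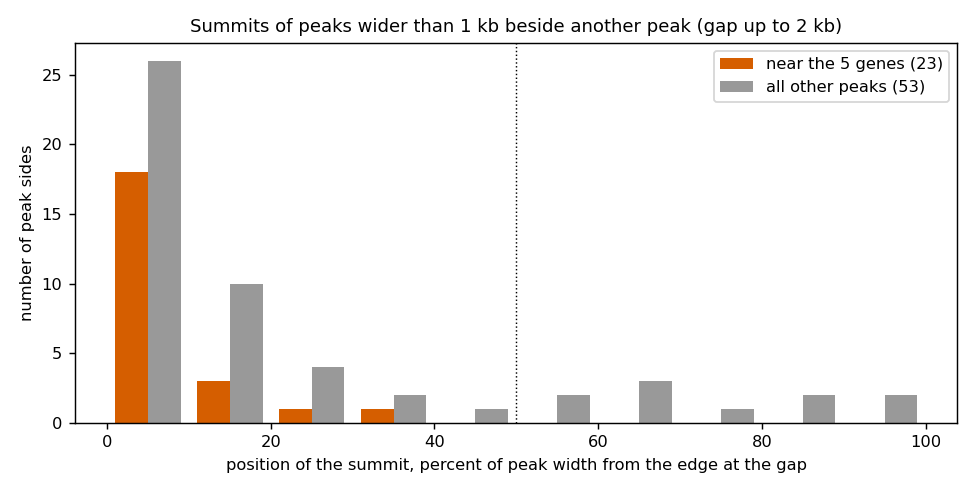
Position of the summit in peaks wider than 1 kb that adjoin another peak of the same list, as percent of peak width from the edge at the gap (horizontal axis), with the number of peak sides in steps of 10% (vertical axis). All 23 sides near the 5 genes lie left of the dotted line at 50%, as do 43 of the 53 others; 7 of the other peaks have a gap on both sides and are counted at each.

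Protein-coding genes within 50 kb of a site, the 5 genes included, numbered 4 near Gdf3, 1 near Gata4 and 5 at Gp9. There were 2 each near Klf15 and Rnf145. Predicted genes numbered 3 near Gdf3, 1 near Gata4, 2 at Gp9, 0 near Klf15 and 3 near Rnf145. Within 50 kb of the site near Gata4, Gata4 was the only protein-coding gene, 5.40 kb away. The site near Gdf3 lay between Gdf3, 2.42 kb away, and Dppa3, 4.11 kb away on the other side, with Apobec1 at 9.49 kb on the side of Gdf3. Dppa3 encodes a maternal factor that protects DNA methylation, and Apobec1 encodes a cytidine deaminase. Near Klf15 the site had Klf15 at 22.1 kb on one side and Aldh1l1, a folate enzyme gene, at 28.1 kb on the other. The site near Rnf145 lay between Ublcp1, a proteasome phosphatase gene at 29.6 kb, and Rnf145 at 13.1 kb. At Gp9 the protein-coding neighbours with a gene name were Efcc1 at 9.497 kb on the low side, and Rab43, a small GTPase gene, at 9.36 kb and the splicing factor gene Isy1 at 39.0 kb on the high side.

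Relatives of the 5 genes were mostly without a peak, as were protein-coding genes in general. Of 44 other genes in 5 groups, 2 had a summit inside or within 50 kb of the gene body, beside 430 of 21887 protein-coding genes (1.96%). None of 11 further genes of GDF3 and NODAL signalling had one, nor 7 GATA factors and cofactors, nor 3 genes of the GPIb-IX-V complex of platelets. Among 16 other KLF factors it was Klf10, a gene induced by TGF-beta, with a narrow peak 7.86 kb away in 3 lists, at folds of 19.8 for ATRi+APH 9 h, 11.3 for ATRi+APH 18 h and 11.1 for ATRi+shTIM. Among 7 ubiquitin ligases of sterol control and their partners it was Insig1, which encodes a sterol-dependent anchor of SCAP and HMG-CoA reductase. Near it lay 2 ATRi+APH 18 h peaks, at folds of 7.43 and 7.87, and 1 ATRi+shTIM peak, at a fold of 9.83. None of these peaks was wider than 368 bp.

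The sites most like the 5 in rank were found among 29 sites present in all 4 lists with the inhibitor. Likeness was the mean absolute difference, over the 4 lists, between the percent rank of a site by fold and the mean of the member sites, which differed from their own mean by 3.83 to 8.08 percentage points. The closest other site lay 22.1 kb from Slc7a10, an amino acid transporter gene, at 2.14 points, with folds of 13.3 with ATRi alone, 32.3 for ATRi+APH 9 h, 45.5 for ATRi+APH 18 h and 36.3 for ATRi+shTIM. It was broad too, with peaks of 1382, 1646, 4570 and 1292 bp in these lists. The next, 62.1 kb from Spon1, an extracellular matrix protein gene, differed by 4.07 points and had folds of 12.2, 40.9, 35.2 and 33.5, but spanned 198 bp. The site beside Ptgr2, a prostaglandin reductase gene, differed by 11.1 points and spanned 4567 bp. Another, at 8.27 points, lay in a predicted gene. Sites close in rank to those of the 5 genes thus included both broad and narrow ones.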

How the data were processed

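The authors deposited peak lists that give, per peak, a ratio (fold enrichment over input at the summit), −log10 p-values and −log10 q-values, and the summit. Each list pools all ChIP libraries of a treatment against its inputs, per the peak names in the deposited lists. The submitters' processing notes name STAR 2.5.2a, SAMtools 0.1.19, Picard 1.141, MACS2 2.1.0, bcl2fastq 2.17.1.14 and the build mm10; settings are not given in the sources used here.

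Edges, gaps, widths, ranks and distances were computed with Python 3.11.15, pandas 2.3.3 and numpy 2.4.6, after a check on simulated data. Coordinates are 1-based. Gene bodies and promoters came from RefSeq tables on GRCm38.p6, which held promoters for 3 of the 5 genes. No genome was used, so the sequence under the peaks was not analysed here. No test was run.

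Named genes are the 5 genes, protein-coding genes within 50 kb of a site, related genes with a summit within 50 kb, and the nearest protein-coding gene of the 5 most similar sites. Predicted genes were counted and not named. Some items under this rule are not reported here. The genes, gene lists and motifs were chosen with earlier results of these data known. Alternatives changed the window, the significance limit, the joining of peaks, the ranking and the measure of likeness.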

Additional observations from a re-analysis of the deposited data

How the results depend on the processing

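The 43 member peaks became 24 with summits within 10 kb and 20 with peaks under 1 kb apart counted once. They stayed 43 within 100 kb or by the nearest edge, were 41 at a −log10 q of at least 10 and 38 at a −log10 p of at least 34. Joined at an overlap of 1 bp in place of a gap of 1 kb, the member peaks formed 8 sites present in all 4 lists with the inhibitor, in place of 5, and the other settings left 5. The summit of the strongest peak lay within 25% of the width from an edge of that peak in 15 of 20 combinations of locus and list, but in 1 when placed within the joined span. The largest range of an inner edge near Gdf3, Gata4 and Gp9 was 59 bp, and 18 bp without ATRi+shTIM, an alternative chosen after seeing the data. Leaving out broad peaks with a gap on both sides, also chosen after seeing the data, moved the share of summits nearer the gap elsewhere from 81.1% to 92.3%. The strongest peak of a locus ranked in the top 10 in 13 of 20 combinations by fold, 15 by −log10 p and 14 with joined sites. By −log10 p, 8 of the 20 single ranks moved by over 1.5 times, 4 of them in the ATRi list, and at Gp9 they went from 9 to 1 for ATRi, 13 to 8 for ATRi+APH 9 h and 16 to 7 for ATRi+APH 18 h. Of the 5 most similar sites, 4 were shared when the log2 fold was compared. No paired analysis was possible because the lists pool their libraries, and for the same reason no replicate could be left out. Read depth was not given, which limits every comparison of widths between lists.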
